A study of Drosophila melanogaster with 4 samples.

Results

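Short stretches of H3K27me3 that both immunoprecipitations picked up were examined in Drosophila melanogaster larvae. They were chosen by 2 measured values, width and overlap: a cluster of the combined list on 2L, 2R, 3L, 3R, X or 4 was taken if it was narrower than 5000 bp and shared at least 1 bp with a cluster of each replicate list. A cluster is a deposited region of significant enrichment. Of 4240 such narrow clusters on the 6 arms, 342 qualified (8.07%). They were 7.14% of the 4792 combined clusters on these arms and held 1108 kb, 5.34% of the marked length. Width and replicate overlap chose them, so both are given as a description, with no test.

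The series had 4 libraries: 2 of DNA immunoprecipitated with a mouse monoclonal antibody to H3K27me3, and 2 of input DNA. All came from larvae at the third instar of the wild-type strain Oregon-R-modENCODE, and no agent or transgene is named. The labels name no single tissue, so each value is an average over the cells of homogenised larvae, and a few cells with much of the mark cannot be told from many cells with little. The analysis used the list of each ChIP replicate (2510 and 1819 clusters) and the combined list of the series (4966 clusters). The input libraries enter no comparison here.

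H3K27me3 is the trimethylation of a lysine in the tail of histone H3, placed by Polycomb repressive complex 2. In flies this complex and its partner complex are brought to DNA by Polycomb response elements, and the mark then spreads over nearby nucleosomes. Its best-known targets are developmental regulators such as the homeotic genes, which are kept silent under broad domains of the mark. The narrow clusters lie at the other end of the width range, and no gene is placed on them here, since a gene annotation of the same genome release was not used.

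The clusters were 1409 to 4988 bp wide, with a median of 3149 bp and quartiles of 2489 and 3999.75 bp. Narrow clusters found in neither replicate had a median of 1247.5 bp, those found in replicate 1 alone 1700 bp and those in replicate 2 alone 1990 bp. The share found in both replicates rose with width. It was 1.02% of the 1661 combined clusters of 1301 bp to under 2 kb, 21.8% of the 597 of 2 to 3 kb, 42.7% of the 255 of 3 to 4 kb and 66.2% of the 130 of 4 to 5 kb (each class without its upper limit). No replicate cluster was under 1301 bp, while combined clusters began at 1001 bp. Of the 2643 narrow clusters of at least 1301 bp, 12.9% were found in both.

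The replicates marked the middle of these clusters more often than the parts towards the edges. At the centre position, 82.7% of the 342 clusters lay inside a replicate 1 cluster and 93.0% inside a replicate 2 cluster. At 1 kb to the right, where 95.3% still lay inside a combined cluster, the shares were 46.5% in replicate 1 and 60.8% in replicate 2. At 2 kb to the right they were 9.36% and 18.4%. Many members end before that position, and only 43.3% lay inside a combined cluster there. Over the 6 arms as a whole, the replicate lists covered 10.5% and 12.5% of the sequence. At positions from 2 to 10 kb on either side, replicate 1 coverage ran from 4.39% to 17.5% with a median of 13.2%, on both sides of its arm-wide level. Replicate 2 coverage ran from 16.1% to 29.5% with a median of 26.0%, above its own level throughout. As an example, at 10 kb to the left, coverage was 13.5% in replicate 1 and 27.5% in replicate 2. Around the narrow clusters 50 kb or more from a combined cluster of at least 10000 bp, it was 7.69% and 13.3% at that position. Coverage around these isolated clusters varied with position. In replicate 2 it was 11.8% at 2300 bp to the left and 22.1% at 5900 bp to the right. In replicate 1 it was 4.1% at 2300 bp to the right and 13.8% at 6000 bp to the left.

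**Figure D1:**
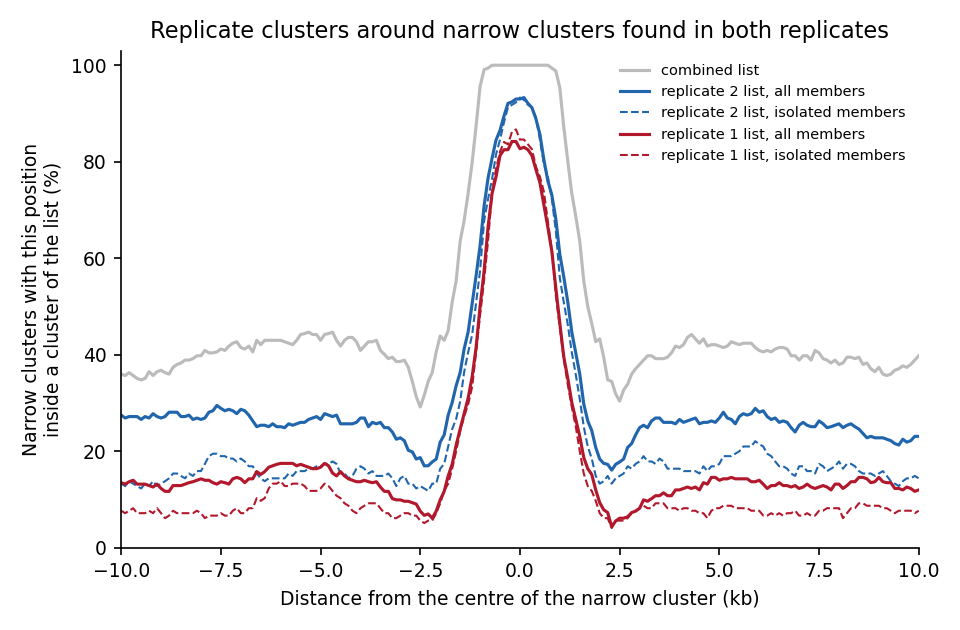
The y axis gives the percent of narrow clusters whose position at a distance from the centre (x axis, kb) lies inside a cluster of the replicate 1 list (red), the replicate 2 list (blue) or the combined list (grey). Solid lines are all 342 clusters, and dashed lines are the 195 at 50 kb or more from a cluster of 10000 bp or more. The solid lines stand at 82.7% (replicate 1) and 93.0% (replicate 2) at the centre, and at 9.36% and 18.4% at 2 kb to the right, where the combined list stands at 43.3%.

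Replicate 1 covered 62.2% ± 19.3 of a cluster (mean and SD over 342 clusters) and replicate 2 covered 73.8% ± 19.5. Replicate 2 covered more bases in 239 of the 342, replicate 1 in 102, and 1 was even. Bases covered by both at once made up a median of 52.1% of a cluster (quartiles 37.4% and 67.4%), and bases covered by either made up 89.4%. In 292 of the 342 the combined cluster was wider than each replicate cluster that touched it. The touching replicate clusters had a median width of 1735.5 bp in replicate 1 and 2036 bp in replicate 2. Of the touching replicate 1 clusters 85.1% lay wholly inside the combined cluster, and of those of replicate 2 68.1%.

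The support was nearly always 1 narrow cluster for 1 narrow cluster. A single replicate 1 cluster touched 328 of the 342, and a single replicate 2 cluster touched 321. In 329 (96.2%) the clusters of both lists were themselves under 5000 bp. The members drew on 354 different replicate 1 clusters, of which 2 touched more than 1 member, and on 361 different replicate 2 clusters, of which 3 did. Members that share a replicate cluster are not independent of each other.

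The best-supported cluster was on chromosome 4, 4:1285716-1287970. Replicate 1 marked 1285748 to 1287947 and replicate 2 marked 1285753 to 1287861, so the replicates differed by 5 bp at the left edge and by 86 bp at the right. They covered 97.6% and 93.5% of it. Next was 2R:3325868-3328683, covered 92.5% in replicate 1 and 98.7% in replicate 2. After it was 3R:1336701-1338763, with 91.8% and 92.1%. In these 3, both replicates filled nearly the whole combined cluster.

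At the other extreme, the rule was met with little shared sequence. The replicate lists covered no common base in 12 of the 342. On 2L:726476-731458, 4983 bp wide, replicate 1 marked 726803 to 728903 and replicate 2 marked 729229 to 731263, each on its own side. The combined cluster there spans 2 neighbouring stretches that each replicate supports singly. On X:2058855-2061899 replicate 1 reached only 0.427% of the length and replicate 2 covered 71.3%. On 2R:10956463-10957979 replicate 1 covered 96.7% and replicate 2 0.857%. On 2R:4172768-4174176 replicate 1 covered 0.923% and replicate 2 97.9%. Such marginal members were few: 4 had under 10% of their length in a replicate, and 5 shared under 500 bp with a list. Just outside the rule, 5 narrow clusters that touched 1 list lay under 100 bp from a cluster of the other, and 50 lay under 500 bp from one. The nearest were 2L:4617356-4619598, which missed by 25 bp, 2R:19723330-19725016, by 28 bp, and 3R:11982140-11983496, by 29 bp.

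**Figure D2:**
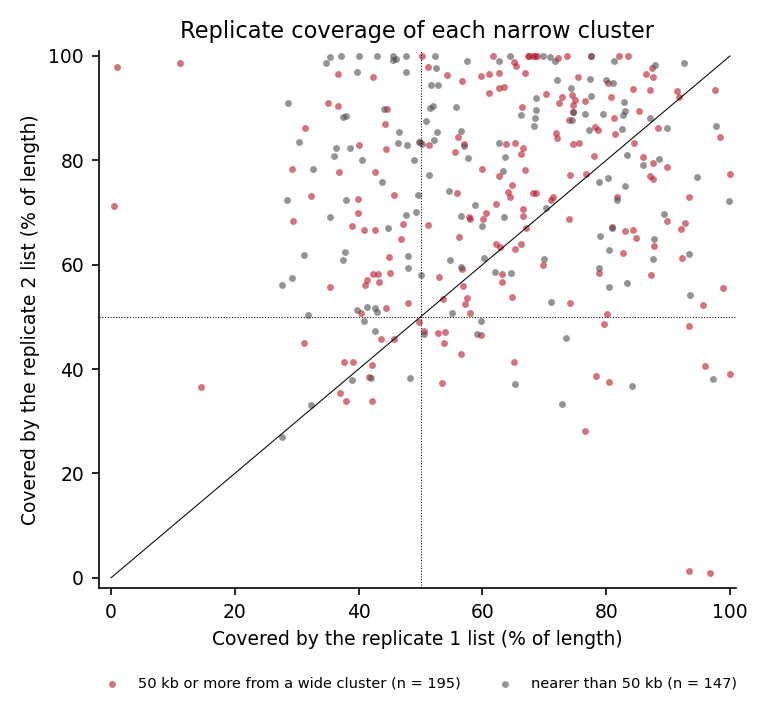
Each point is 1 of the 342 narrow clusters, placed by the percent of its length covered by the replicate 1 list (x axis) and by the replicate 2 list (y axis); red points are 50 kb or more from a cluster of 10000 bp or more and grey points are nearer. Dotted lines mark 50% and the diagonal marks equal coverage. The upper right field holds 215 of the 342, more points lie above the diagonal (239) than below it (102), and the 4 points near an edge are the members barely touched by 1 replicate.

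The clusters named on the 2 sides of the width limit overlapped in score, but they are too few for a comparison. The widest members were 3L:18302998-18307985 at 4988 bp, 2L:726476-731458 at 4983 bp and 3L:634686-639662 at 4977 bp, with score percentiles of 75.6, 85.0 and 85.4. The narrowest clusters in both replicates that were too wide for the rule were on 2R, namely 18560417-18565422 at 5006 bp, 15708456-15713463 at 5008 bp and 2444851-2449859 at 5009 bp, with percentiles of 90.7, 57.5 and 86.4. The next widest members, both on 3R, were 10172494-10177465 (4972 bp) and 19336437-19341390 (4954 bp). They ranked 950 and 886 by score.

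Distance to wide domains was not part of the rule. A wide domain is here a combined cluster of 10000 bp or more, of which the arms held 293, and the distance runs between the nearest edges on the same arm. The 342 clusters lay at a median of 79.4 kb from one, with quartiles of 13.4 and 228.0 kb and a largest distance of 1482 kb. Of them, 195 (57.0%, 95% Wilson interval 51.7% to 62.2%, counting error only) were isolated by 50 kb or more. Among all 4240 narrow clusters, the members included, the share was 73.5%. Clusters in replicate 2 alone had 59.3% isolated (55.6% to 62.9%), whereas those in replicate 1 alone had 79.6% (76.4% to 82.3%) and those in neither 78.1% (76.4% to 79.6%). Clusters of 5 to 10 kb had 43.6%. No test was made of these differences, because clusters of 1 list are neighbours on the chromosome and not replicates.

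**Figure D3:**
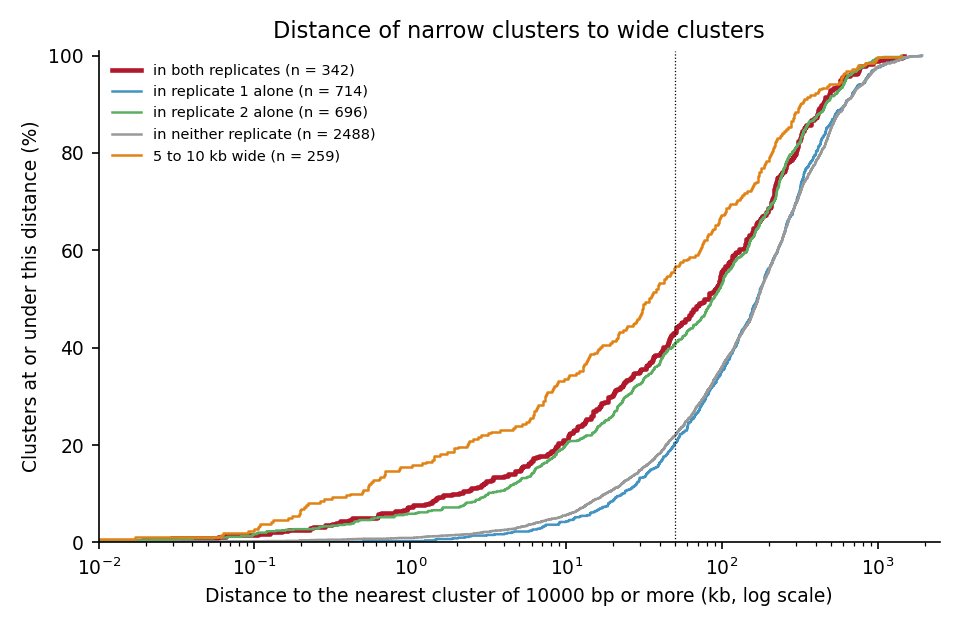
Cumulative percent of clusters (y axis) at or under a given distance to the nearest combined cluster of 10000 bp or more (x axis, kb, log scale), for narrow clusters in both replicates (thick red), in replicate 1 alone (blue), in replicate 2 alone (green) and in neither (grey), and for clusters of 5 to 10 kb (orange). At the dotted line at 50 kb the red and green lines run together, with 57.0% and 59.3% still to come, and the blue and grey lines lie below them, with 79.6% and 78.1% to come.

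The groups differ in width, so the shares were also read within classes of width, a step added after the lists had been seen. At 2 to 3 kb, 61.5% of the 130 members were isolated, against 75.9% of 141 clusters in replicate 1 alone, 60.5% of 215 in replicate 2 alone and 65.8% of 111 in neither. At 3 to 4 kb, 60.6% of 109 members were isolated, against 66.7% of 36, 48.9% of 94 and 75.0% of 16 in the same order. At 4 to 5 kb, the share was 43.0% of 86 members, against 1 of 5 clusters in replicate 1 alone, 57.6% of 33 in replicate 2 alone and 6 of 6 in neither. From 1301 bp to under 2 kb, it was 70.6% of 17 members, against 81.0% of 385, 60.3% of 310 and 77.7% of 949. Members were thus below clusters in neither replicate in each class, by least at 2 to 3 kb. They were below clusters in replicate 2 alone only at 4 to 5 kb. Wilson intervals of members and clusters in neither overlapped at 2 to 3 kb (53.0% to 69.5% and 56.5% to 73.9%) and at 3 to 4 kb (51.2% to 69.2% and 50.5% to 89.8%). Differences within classes too were not tested.

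Scores were lowest among the farthest members. The 50 members under 5 kb from a wide domain had a median score percentile of 75.7, the 97 at 5 to 50 kb had 77.4, the 88 at 50 to 200 kb had 77.6, and the 107 at 200 kb or more had 70.1. Median width was 3945 bp in the nearest class and 3162, 3051 and 3105 bp in the next 3. Replicate 2 covered a median of 83.0% of the nearest members and 75.3% of the farthest. Replicate 1 covered 58.1% and 64.1% in the same classes. Over the 342 clusters the Spearman correlation of distance with score was -0.07 and with width -0.20, as a description of neighbouring clusters from the same libraries.

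The farthest members lay together on 3R. The first was 3R:15718021-15720229, 1482462 bp from a wide domain, where replicate 1 marked 15718274 to 15720100 and replicate 2 marked 15717986 to 15719395. Next came 3R:15641946-15646835 at 1435595 bp, which is among the 12 with no base in both replicates, and 3R:15476864-15481191 at 1270513 bp. Then followed X:22274780-22277100 at 1020164 bp and 3L:17351612-17354887 at 928474 bp, covered 74.6% in replicate 1 and 90.6% in replicate 2. The first 3 lie within 243.4 kb of 3R, so they stand for 1 place rather than for 3. Around the isolation limit, 3R:26822858-26826795 at 50258 bp counted as isolated and 3R:25591638-25594162 at 48196 bp did not.

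The 3 members nearest to a wide domain, picked for that nearness, were set off from it by very short gaps. Others under 5 kb lay farther off, such as 2R:2410618-2413190 at 4688 bp. Of the nearest, X:3986037-3990413 lay 11 bp from a wide domain of 14.7 kb, 2L:21971591-21975625 lay 19 bp from one of 14.4 kb, and 2R:20921703-20926008 lay 29 bp from one of 37.6 kb. In 4 cases, named after their values were seen, the supporting replicate 2 cluster was itself 10000 bp or more: 3L:15198508-15202357, 3R:10172494-10177465, 3R:20969308-20974083 and the X cluster above. At 3R:10172494-10177465 the replicate 2 cluster ran from 10155753 to 10178808 over 23056 bp, and the replicate 1 cluster from 10173174 to 10175022 over 1849 bp. Across the 342 clusters a supporting replicate 2 cluster also touched the nearest wide domain in 5, and a replicate 1 cluster in 0. Wide domains lay within 50 kb on both sides of 28 members.

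Isolation from wide domains did not always mean standing alone. Of the 195 isolated members, 94 (48.2%) had no other combined cluster under 1 kb away, and the rest had one. Over all 342 members, isolated or not, the median gap to the nearest combined cluster of any width was 677 bp. It was 929 bp for narrow clusters in replicate 2 alone, 2716.5 bp for those in neither and 3702 bp for those in replicate 1 alone. Clusters of 5 to 10 kb had 366 bp. Within classes of width, members and clusters in replicate 2 alone were close in the middle classes, with 793 and 814 bp at 2 to 3 kb and 706 and 689 bp at 3 to 4 kb. Members had the smaller gap at 4 to 5 kb, with 512.5 against 842 bp. The same held from 1301 bp to under 2 kb, with 563 bp for 17 members against 1040.5 bp. A neighbour lay under 1 kb away for 202 of the 342 (59.1%), against 52.2% of clusters in replicate 2 alone, 29.2% of those in neither and 25.5% of those in replicate 1 alone. Joined across gaps under 1 kb, 96 members (28.1%) became part of a chain spanning 10 kb or more, against 23.0% of clusters in replicate 2 alone, 5.18% of those in neither, 2.38% of those in replicate 1 alone and 9.48% of all 4240 narrow clusters. Clusters of 5 to 10 kb, which need less to reach that span, had 61.4%. Members, wider by median than the other narrow groups, also need less than those, and spans were not read within classes of width. A chain can take in a wide domain, as at 3L:3704798-3708304, where it spanned 95.9 kb. Of the 195 isolated members, 36 (18.5%) lay in a chain of 10 kb or more. The share was 12.8% of isolated clusters in replicate 2 alone and 4.84% of all 3118 isolated narrow clusters. The joining gap was chosen after the lists had been seen: at 500 bp 17 isolated members lay in such chains, and at 5000 bp 108 did.

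**Figure D4:**
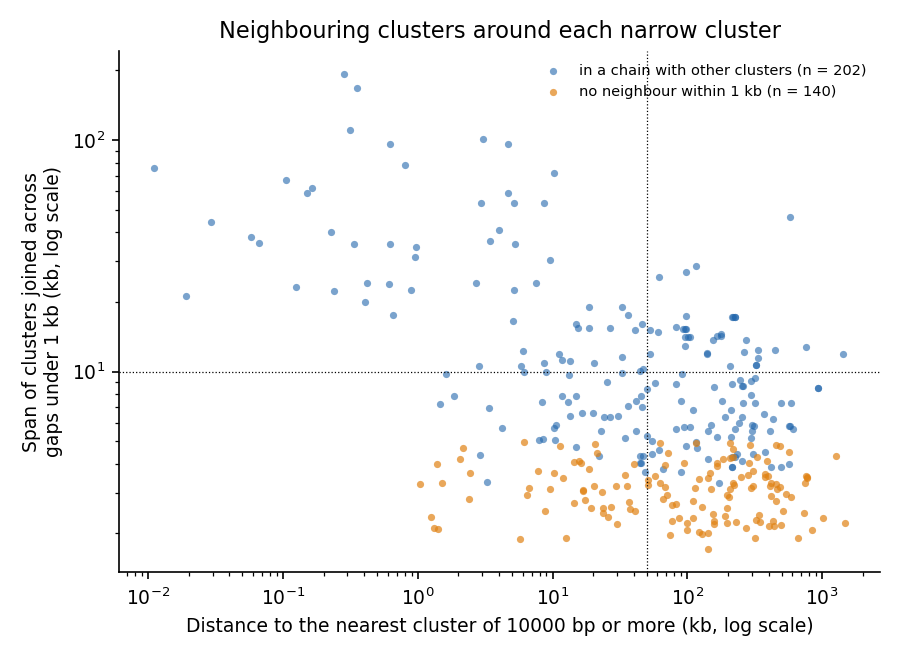
Each of the 342 narrow clusters is placed by its distance to the nearest combined cluster of 10000 bp or more (x axis, kb, log scale) and by the span it reaches when combined clusters are joined across gaps under 1 kb (y axis, kb, log scale). Orange points have no neighbour within 1 kb (140), blue points have one or more (202), and dotted lines mark 50 kb and 10 kb. The upper right field holds the 36 isolated members that lie in chains of 10 kb or more.

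The longest such chain lay on 3R around 17971339-17974487, a member 575069 bp from a wide domain. It joined 8 combined clusters over 46.4 kb, none of them 10 kb wide by itself. Others, picked like the first for their span, were around 3R:13759650-13763030 (8 clusters, 28.6 kb), X:7276332-7279707 (7 clusters, 26999 bp) and 3L:6360151-6362816 (4 clusters, 25.6 kb). These chains mixed narrow clusters with clusters of 5 to 10 kb: the first held 4 of each, the next 6 narrow and 2 wider ones, the one on X 5 and 2, and the one on 3L only the member itself and 3 wider ones. Each held 1 member. A chain on 2R from 4163490 to 4180745, chosen after its values were seen, was made of 6 narrow clusters, 4 of them members.

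The members that stood alone in both senses numbered 47: isolated by 50 kb or more and with no combined cluster within 5 kb. This count was not made for other narrow clusters, so it is not shown to be a trait of the members. The upper quartile of the gap to any combined cluster was 2263.5 bp for members, against 7272 bp for all narrow clusters. The 47 were 24.1% of the isolated members, with 14 on X, 12 on 3R, 9 on 2L, 7 on 3L, 4 on 2R and 1 on chromosome 4. Their median width was 3193 bp, against 3144 bp for the other 295 members, and their median score percentile was 80.4, against 75.3. X held 14 of the 47 but 61 of all 342 members, and members on X had a median percentile of 86.4. The score difference was not read within arms. Replicate 1 covered a median of 66.6% of the 47 and replicate 2 66.8%, against 61.7% and 78.3% of the others. Coverage by the replicates was therefore even in the solitary clusters and tilted to replicate 2 elsewhere. The highest-scoring was 3R:22702925-22707762, 4838 bp wide, 290239 bp from a wide domain and 27357 bp from any combined cluster. Replicate 1 marked 22703657 to 22707630 and replicate 2 marked 22702794 to 22707761, which is 82.1% and 100% of it. The next were X:18665712-18668810, 2L:9778443-9782467, X:917153-920657 and 2L:12007579-12010389, with score percentiles of 90.1 to 91.5 (a choice made after the values were seen).

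Each cluster has a deposited score whose unit is not given, so scores were read as percentiles within the combined list, where 100 is the highest. The members had a median percentile of 75.6 (quartiles 58.5 and 85.3). Clusters of 5 to 10 kb had 82.7 and wide domains 95.2, whereas narrow clusters in replicate 1 alone had 44.1, in neither 40.3 and in replicate 2 alone 39.3. Above the percentile of 90 were 9.65% of the members (33), close to the 10% of the whole combined list that lies there by definition. The share was 24.3% for clusters of 5 to 10 kb and 2.41% for all narrow clusters. It was 2.37% for narrow clusters in neither, 1.15% in replicate 2 alone and 0.28% in replicate 1 alone. The score comes from the same immunoprecipitations as the rule, and these levels are a description. In their own lists the supporting clusters ranked lower, at a median percentile of 42.6 in replicate 1 and 44.5 in replicate 2, and those lists are shorter and start at a larger width.

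The higher scores were seen from 2 kb upward. At 2 to 3 kb the median percentile was 74.9 for members, against 61.1, 52.7 and 42.9 for clusters in replicate 1 alone, replicate 2 alone and neither. At 3 to 4 kb it was 77.2, against 58.7, 60.6 and 32.6. At 4 to 5 kb it was 78.9, against 62.1, 56.2 and 24.7. The 17 members under 2 kb had 22.4, against 20.2 to 31.1 in the other groups, so no such difference was seen among the narrowest members. Among members, score had a Spearman correlation of 0.61 with the score of the replicate 1 cluster, 0.79 with that of the replicate 2 cluster and 0.27 with width. The scores of the 2 replicate clusters correlated at 0.42 over the 342 members, which share chromosome neighbourhoods and libraries.

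**Figure D5:**
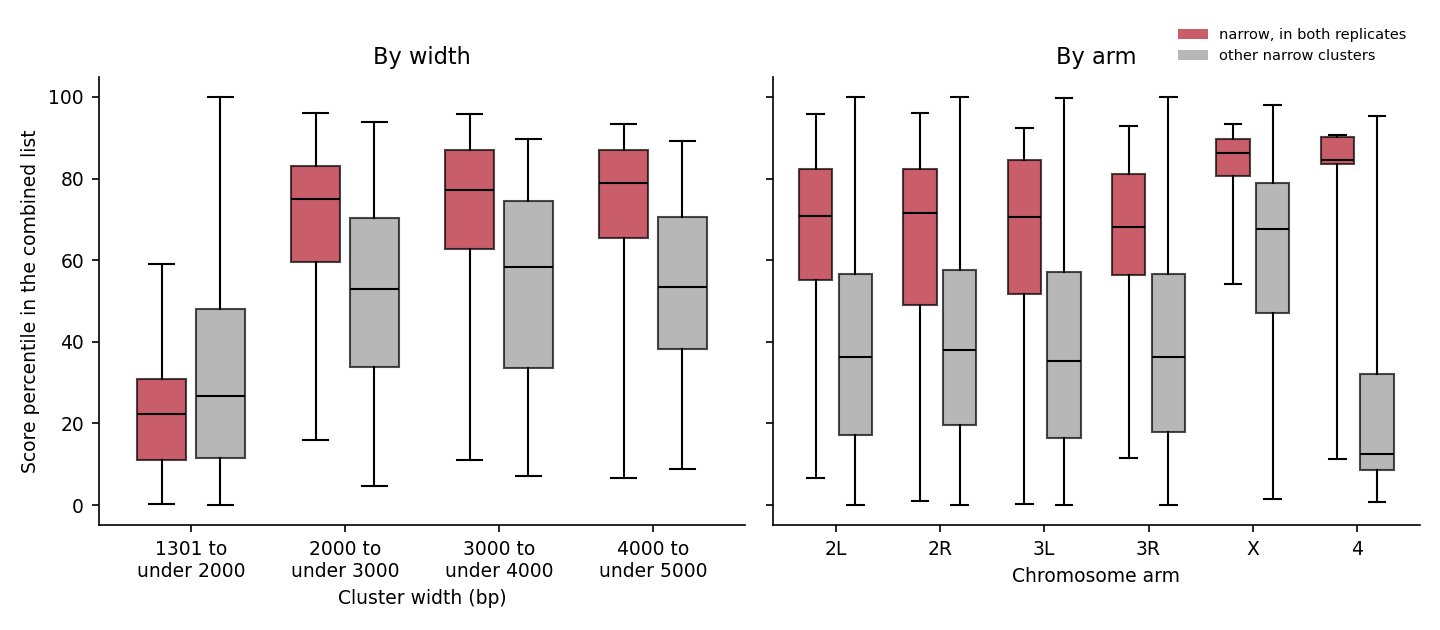
Score percentile in the combined list (y axis) for narrow clusters in both replicates (red) and all other narrow clusters (grey), by width (left, bp) and by chromosome arm (right). Boxes span the quartiles, lines mark medians and whiskers reach the lowest and highest value. The red medians lie above the grey ones in the 3 width classes from 2000 bp and on all 6 arms, and both red and grey medians on X (86.4 and 67.7) lie above those of the 4 large autosomal arms.

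Of the 5 highest-scoring members, 4 lay on chromosome 2. The first was 2R:2303047-2305760, at rank 199 of the 4966 combined clusters with a score of 1.41. Replicate 1 marked 2303076 to 2305075 there and replicate 2 marked 2303039 to 2307596, beyond its right edge. The second was 2L:20150121-20153717, at rank 214 with a score of 1.33, where replicate 1 marked 2039 bp and replicate 2 3428 bp. Then came 2R:3325868-3328683 at rank 274, 2R:2207797-2211456 at rank 320 and X:15517080-15520659 at rank 326. Of these 5, 2R:3325868-3328683 lay 2395 bp from a wide domain, and the others were 82040 to 375430 bp away. Apart from 2R:3325868-3328683, those on chromosome 2 were within 3 Mb of the centromere-proximal end of their arm, as were 6 of the 20 highest-scoring members of the 5 large arms. Over all 337 members of these arms the share was 9.79%, against 11.8% of other narrow clusters, and those windows make up 12.6% of the arms. The median score percentile was 78.5 for members within these windows and 75.4 for those beyond. The windows were not among the measures set beforehand.

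All 6 arms carried members. There were 85 on 2R, 71 on 3L, 67 on 3R, 61 on X, 53 on 2L and 5 on chromosome 4, or 4.02 per Mb on 2R, 3.70 on chromosome 4, 2.89 on 3L, 2.72 on X, 2.40 on 3R and 2.30 on 2L. As a share of the narrow clusters of each arm they were 9.32% on 2R, 8.84% on X, 8.01% on 3L, 7.36% on 2L and 6.63% on 3R, against 8.07% over the arms, and 5 of 21 on chromosome 4. Of 117 full bins of 1 Mb on the large arms, 15 held no member and the median was 2. The fullest, with 10 each, were 2R from 2 to 3 Mb and 2R from 15 to 16 Mb. Members within 5 kb of another member numbered 90 (26.3%), and the median distance to the nearest other member was 36.8 kb.

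Members on X stood high by score. Their median percentile was 86.4 and all 61 lay above the percentile of 50, against medians of 68.2 to 71.5 on the 4 large autosomal arms. The 5 members on chromosome 4 had 84.5. The other narrow clusters of X were also high, at 67.7 against 35.3 to 38.0 on the large autosomal arms and 12.6 on chromosome 4. Narrow clusters of the replicate 1 list had 69.4 on X, against 36.7 to 38.3 on the large autosomal arms. Those of the replicate 2 list had 60.7, against 27.7 to 35.3. Clusters of 5 to 10 kb had 87.9 on X, against 78.3 to 83.3 on the large autosomal arms and 86.7 on chromosome 4. Wide domains had 93.9 on X, against 94.9 to 96.1 on the large autosomal arms, so those of X did not stand high.

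Chromosome 4 had 5 members, and 4 of them lay within 35.4 kb. In order of score these were 4:420449-424486 (replicate 1 covered 34.8%, replicate 2 98.6%), 4:445790-448738 (87.9% and 98.2%), 4:415577-419542 (52.4% and 100%) and 4:413313-415167 (83.1% and 75.0%). The last lay 423 bp from a wide domain of 10.8 kb. The other was the well-supported 4:1285716-1287970 described above, 157684 bp from a wide domain and 20147 bp from any combined cluster.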

How the data were processed

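Per the labels' protocols, larvae were homogenised and treated with formaldehyde, and chromatin was sheared by sonication before immunoprecipitation. Reads were handled with Bowtie 0.12.7, per the submitters' processing notes. The build is FlyBase release 5, per the file headers. The sources used here do not give what called the clusters, at which threshold and with what use of input, or how the combined list arose, and depth is unknown. The combined list is not independent of the replicate lists. The authors deposited 1 score per cluster, in a unit not given, read here only as a rank within its list. The other deposited values are first and last bases, counted from 1.

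Overlaps and edge-to-edge gaps were computed with Python 3.11.15, numpy 2.4.6 and pandas 2.3.3, and checked against base-by-base counts on simulated intervals. Wilson intervals (95%, scipy 1.17.1) take clusters as independent and express only counting error. No test was made: 2 libraries of 1 condition give no comparison over samples, and whether the replicates came from separate collections is not stated. Members, limits and alternatives were chosen with earlier results of these data known. Named clusters are the 5 highest-scoring, 5 widest, 5 farthest from and 3 nearest to a wide domain, those of chromosome 4, the 3 with most and the 3 with least replicate coverage, and those at the limits, unless said otherwise. The gene table at hand is of release 6, so genes and sequences are not given. Plots used matplotlib 3.10.9.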

Additional observations from a re-analysis of the deposited data

Results flagged for a closer look

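The same rule was applied to sequences other than the 6 arms, which the description above leaves out. There, 7 narrow clusters of 173 shared sequence with both replicate lists. They are listed because they passed a limit of 3 clusters, which is not an expected number and marks no excess. The share was 4.05%, against 8.07% on the 6 arms. They were 4 of 70 narrow clusters on unplaced sequence U, and 1 each on 2RHet, 3LHet and 3RHet. A pair of those on U had high scores, U:6477722-6481257 at rank 115 and U:5583903-5587824 at rank 159. How well reads can be placed on such sequence was not tested.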

How the results depend on the processing

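An alternative counted as moving a value when it left the 95% interval of the value reported, or changed a count by more than 1.5 times. Of 56 values recomputed, 26 did not move and 30 did, most of them by construction, since the setting keeps other clusters or redefines the distance. Requiring 50% coverage by each replicate left 215 members, with a median width of 2714 bp and a score percentile of 78.1. A width under 3000 bp left 147, with 2388 bp, a percentile of 69.8 and 62.6% isolated. Joining combined clusters closer than 1000 bp left 177, with 3310 bp (the highest score of a chain was used). Replicate clusters at or above the median score left 84, with a percentile of 87.8, and combined clusters at or above it gave a percentile of 78.8. With 1 replicate list left out, the number was 1038 to 1056, the width 1974 to 2351 bp, the percentile 52.9 to 55.1, the distance 85.4 to 141.7 kb and the share isolated 58.6% to 72.3%; the upper distance and share came without replicate 2. Distance depended most on what counts as wide. The median was 205.5 kb to clusters of 20000 bp or more, 15.7 kb to those of 5000 bp or more, 221.5 kb to wide clusters of the replicate 1 list and 104.2 kb to those of replicate 2, with 76.3%, 35.4%, 78.4% and 63.5% isolated. An isolation limit of 25 kb gave 66.7% and one of 100 kb 44.2%. Requiring a base in both replicates at once, added after the lists were seen, left 330 members and moved nothing. Depth is unknown. No paired analysis was possible because no test compares groups.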
